A study of Mus musculus with 2 samples.

Results

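The 10 genes described here code for the peroxiredoxins Prdx1, Prdx2, Prdx3, Prdx5 and Prdx6, catalase (Cat), the glutathione peroxidases Gpx1 and Gpx4, and the superoxide dismutases Sod1 and Sod2. They were chosen by symbol, by a rule that used no measured value, but with earlier results of these data known. All 10 were found among the 43346 Ensembl gene rows of the gene tables, of which 21461 are nuclear protein-coding genes. Total RNA was measured in 2 libraries of G1E-ER4, a clonal erythroid cell line of the mouse. Its own Gata1 gene is disrupted, and an introduced GATA1 fused to an estrogen receptor domain becomes active with estradiol. Both cultures received 10 nM 17beta-estradiol for 24 h. Each library was prepared from 100 ng of RNA depleted of ribosomal RNA with the ScriptSeq kit, with an insert size range of 200 to 1000. Both are labelled C57BL/6J, male, postnatal and age 0 day, and both are numbered as biological replicates of 1 experiment. No untreated library was analysed here, so no effect of estradiol or of GATA1 was measured.

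Superoxide dismutases convert superoxide into hydrogen peroxide. Catalase, glutathione peroxidases and peroxiredoxins then reduce the peroxide, with glutathione or thioredoxin as the electron source for the last 2 families. Red cells carry iron and oxygen together in haemoglobin, and peroxiredoxin 2 is one of the most abundant proteins of the mature red cell, where it works beside catalase and glutathione peroxidase 1.

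The chemistry of 7 of the enzymes rests on a single codon, which is shown because several of the transcripts measured below lack it. Peroxiredoxins use a peroxidatic cysteine. Gpx1 and Gpx4 use a selenocysteine, which is coded by TGA, normally a stop codon. The windows hold 45 bases of coding sequence from GENCODE M21 transcripts, with the catalytic codon in capitals.
Prdx1: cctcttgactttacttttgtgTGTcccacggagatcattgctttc
Prdx2: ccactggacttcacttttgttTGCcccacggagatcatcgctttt
Prdx3: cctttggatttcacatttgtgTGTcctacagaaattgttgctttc
Prdx5: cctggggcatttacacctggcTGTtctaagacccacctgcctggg
Prdx6: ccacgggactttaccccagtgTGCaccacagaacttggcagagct
Gpx1: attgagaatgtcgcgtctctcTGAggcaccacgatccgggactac
Gpx4: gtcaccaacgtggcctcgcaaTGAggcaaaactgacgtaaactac

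The codon is number 52 of Prdx1-204, 51 of Prdx2-201, 109 of Prdx3-201, 96 of Prdx5-201, 47 of Prdx6-202, 47 of Gpx1-201 and 73 of Gpx4-202, counted from the annotated start codon. The windows of Prdx1 and Prdx2, both cytosolic enzymes with a second, resolving cysteine, share 38 of 45 bases. Prdx3, the mitochondrial enzyme of the same type, shares 35 bases with Prdx1 and 32 with Prdx2. The window of Prdx6, which works with a single cysteine, shares 23 bases with Prdx1 and 26 with Prdx2, and that of Prdx5 shares 21 with Prdx1 and 19 with Prdx2. The windows of Gpx1 and Gpx4 share 25 of 45 bases. Over the whole coding sequence, 71.0% of aligned bases were identical between Prdx1 and Prdx2 and 65.5% between Gpx1 and Gpx4.

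The libraries held 62080996 and 41051158 expected counts in replicates 1 and 2. A chi-square per degree of freedom of 75.8 over 12223 genes showed that they differed by far more than counting error, so they were kept as 2 replicates. All 10 erythroid marker genes reached 1 TPM (a transcript's share of all transcripts in the library, corrected for its length) in both libraries. Gata1 was among them, at 60.05 and 73.23 TPM, and reads of the introduced GATA1 were not separated from it. Highest were Hbb-bs, with 985.26 and 1629.38 TPM, and Hba-a2, with 930.06 and 1105.67 TPM. Lowest were Slc4a1, with 2.88 and 4.15 TPM, and Epor, with 3.33 and 2.77 TPM. The summed level of the list was 2357 TPM in replicate 1 and 3245 TPM in replicate 2. The part of that difference in the spread of the enzymes between libraries was not tested. None of 8 myeloid and none of 6 lymphoid markers reached 1 TPM, with sums of 0.15 and 1.57 TPM for the myeloid list and 0.13 and 0.34 TPM for the lymphoid list. Of the megakaryocyte list, 2 of 6 genes reached 1 TPM, with sums of 4.50 and 4.12 TPM. Of the stromal or endothelial list 1 of 6 did, Vim, with list sums of 13.1 and 7.72 TPM. Nuclear protein-coding genes held 14.1% and 14.4% of all TPM, which keeps every TPM below what a table of protein-coding genes alone would give. In bulk RNA, fewer cells with a transcript and less of it in each cell cannot be told apart.

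All 10 enzymes were expressed, and their levels covered a range of 94.6-fold in TPM between Prdx2 at the top and Sod2 at the bottom. All 10 reached 1 TPM in both libraries, against 36.3% of the 21461 nuclear protein-coding genes. The members were chosen with earlier results of these data known, and of 8 other members of the same families 1 reached that level. The choice may thus bear on this count and on the medians and percentiles that follow, and its part was not tested. The median of the members was 101.4 TPM in replicate 1 and 102.7 TPM in replicate 2, against 6.44 and 6.38 TPM for the 7781 nuclear protein-coding genes at 1 TPM or more in both. Among those genes, 8 members stood at or above the 90th percentile of mean TPM and 6 at or above the 95th. The count at the 90th depended on the library. Prdx1, Cat and Prdx5 lay above it in replicate 1, at 91.9, 90.5 and 91.0, and below it in replicate 2, at 88.7, 89.96 and 88.4. Together the 10 genes held 1.10% ± 0.00940 of the nuclear protein-coding TPM (SD, n = 2), at a summed 1544 and 1595 TPM. Peroxiredoxins made up 59.4% ± 0.711 of that sum, glutathione peroxidases 32.1% ± 0.0699, superoxide dismutases 6.18% ± 0.467 and catalase 2.23% ± 0.174 (SD, n = 2 each).

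**Figure D1:**
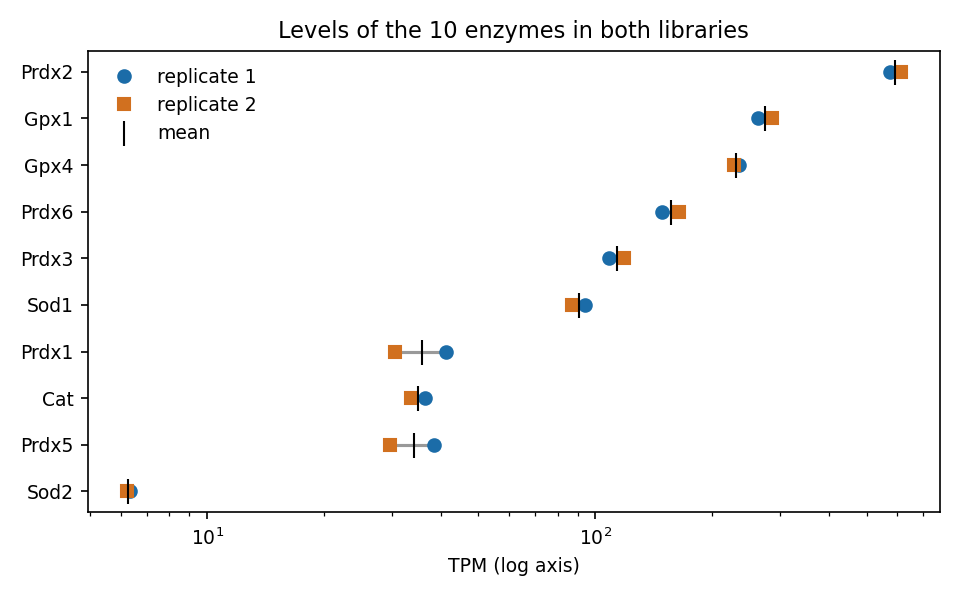
Levels of the 10 enzymes in TPM on a log axis, with 1 point for each library and a vertical mark at the mean. Prdx2 stood at 573.07 and 613.44 TPM, Prdx1, Cat and Prdx5 lay together between 29.63 and 41.19 TPM, and Sod2 stood at 6.33 and 6.21 TPM.

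Among the typical cytosolic peroxiredoxins, Prdx2 and Prdx1 stood far apart. Prdx2 (ENSMUSG00000005161.11, chr8:84969587-84974834, plus strand, mm10) had 573.07 TPM in replicate 1 and 613.44 TPM in replicate 2, from 108668 and 76714 expected counts. It was the 13th highest nuclear protein-coding gene in each library and held 37.8% ± 0.948 of the TPM of the 10 enzymes (SD, n = 2). Prdx1 (ENSMUSG00000028691.8, chr4:116685544-116700822, plus strand) had 41.19 and 30.55 TPM, from 12344 and 7077 expected counts. The log2 ratio of Prdx2 over Prdx1 was 4.06 ± 0.374 (SD, n = 2), a 16.7-fold difference in TPM. Prdx1 had the widest spread of the 10 relative to its mean, with an SD of 7.52 TPM around a mean of 35.9 TPM (n = 2).

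The peroxiredoxins of the mitochondrion and other compartments lay below Prdx2. Prdx6 (ENSMUSG00000026701.11, chr1:161240112-161251219, minus strand), the enzyme with a single catalytic cysteine, which also acts on phospholipids, had 148.62 and 164.25 TPM. Mitochondrial Prdx3 (ENSMUSG00000024997.7, chr19:60864051-60874556, minus strand) had 108.66 and 118.33 TPM. Prdx5 (ENSMUSG00000024953.12, chr19:6906697-6910106, minus strand), found in mitochondria, peroxisomes and cytosol, had 38.48 and 29.63 TPM. In TPM over all transcripts of a gene, Prdx6 was above Prdx3 in both libraries, by a log2 ratio of 0.46 ± 0.0150. Prdx3 was above Prdx5 by 1.75 ± 0.354 (SD, n = 2 each).

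The glutathione peroxidases followed Prdx2 in level. Gpx1 (ENSMUSG00000063856.7, chr9:108338903-108340343, plus strand), which reduces hydrogen peroxide in cytosol and mitochondria, had 262.94 and 284.57 TPM. Gpx4 (ENSMUSG00000075706.6, chr10:80047166-80056439, plus strand), which reduces lipid peroxides within membranes, had 234.20 and 227.46 TPM. Over all transcripts of a gene, Gpx1 was above Gpx4 by a small margin that had the same direction in both libraries. The log2 ratio in TPM was 0.25 ± 0.110 (SD, n = 2).

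Catalase (Cat, ENSMUSG00000027187.6, chr2:103453849-103485160, minus strand), the haem enzyme of peroxisomes and red cells, had 36.33 and 33.61 TPM. By mean TPM it lay between Prdx1 and Prdx5, but it was below both in replicate 1 and above both in replicate 2. Cytosolic Sod1 (ENSMUSG00000022982.9, chr16:90220754-90226329, plus strand), which uses copper and zinc, had 94.21 and 87.12 TPM. Mitochondrial Sod2 (ENSMUSG00000006818.4, chr17:13006846-13040063, plus strand), which uses manganese, had 6.33 and 6.21 TPM, near the middle of the expressed nuclear protein-coding genes at percentile 49.1. Sod1 stood above Sod2 by a log2 ratio in TPM of 3.85 ± 0.0603 (SD, n = 2), or 14.4-fold. Expected counts were closer, at 8569 and 5289 for Sod1 and 4700 and 3186 for Sod2. The effective length was 443 and 427 bases for Sod1 and 3621 and 3605 bases for Sod2.

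**Figure D2:**
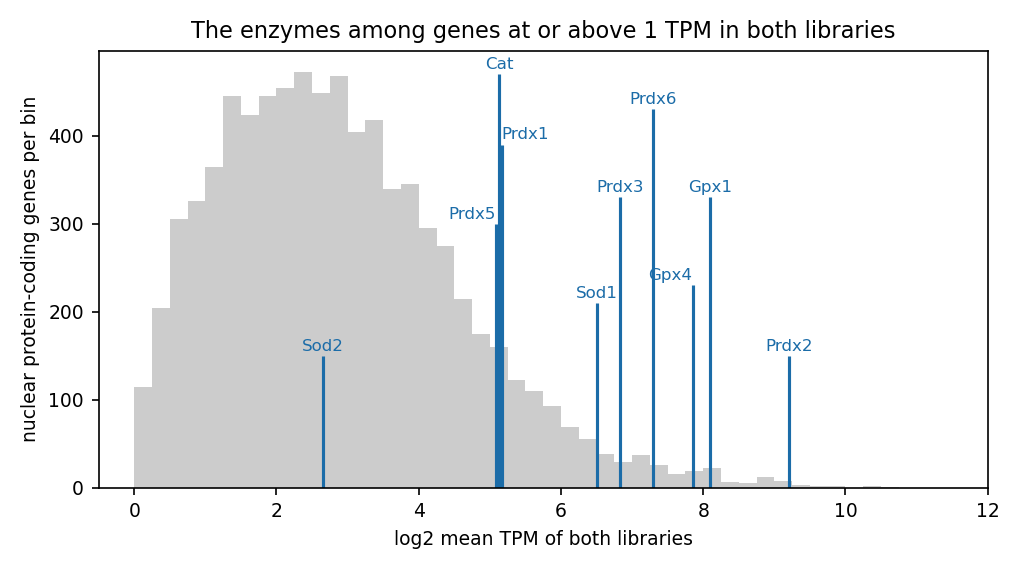
Histogram of log2 mean TPM over the nuclear protein-coding genes at 1 TPM or more in both libraries, with a vertical line at each of the 10 enzymes. The height of a line carries no value. Sod2 lies in the bulk of the genes, Prdx5, Cat and Prdx1 near percentile 90, and the other 6 above percentile 95.

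In order of mean gene TPM, over all transcripts, the enzymes ran Prdx2, Gpx1, Gpx4, Prdx6, Prdx3, Sod1, Prdx1, Cat, Prdx5 and Sod2. On transcripts that code for the catalytic codon alone, 2 neighbour pairs turned in both libraries. Gpx1 had 108.11 and 140.43 TPM there, and Gpx4 233.11 and 226.88 TPM. Prdx6 had 70.55 and 50.8 TPM, and Prdx3 108.66 and 118.33 TPM. Prdx2 stayed above them, at 387.15 and 376.4 TPM. A pair was called separated when the log2 ratio of gene TPM had the same sign in both libraries and its mean exceeded its SD. By that rule 43 of 45 pairs were separated, against 92.1% of all pairs of expressed nuclear protein-coding genes, so the count lay near the background. Of the 9 pairs of neighbours in the order, 7 were separated. Prdx1 over Cat was not, with a log2 ratio of 0.02 ± 0.225, nor was Cat over Prdx5, with 0.05 ± 0.187 (SD, n = 2 each). Prdx1 and Prdx5, which are not neighbours, met the rule with a log2 ratio of 0.07 ± 0.0382 (SD, n = 2). With 2 libraries the smallest p of a two-sided exact sign-flip test is 0.5, so no p is given for any pair.

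The deposited bounds of the TPM estimates, whose credible level is not given in the sources used here, did not overlap between the libraries for 9 of the 10 members. The share over all genes was not computed, so this count cannot be read as particular to these enzymes. Prdx1 had bounds of 39.5 and 42.5 TPM in replicate 1 and of 28.9 and 31.8 TPM in replicate 2. Prdx5 had bounds of 36.9 and 39.7 TPM in replicate 1 and of 28.0 and 31.0 TPM in replicate 2. Sod2 was the exception, with bounds of 6.11 and 6.47 TPM in replicate 1 and 5.94 and 6.37 TPM in replicate 2. These bounds carry read assignment and counting error only.

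None of the 10 enzymes differed 2-fold or more between the libraries, against 2.05% of the 9777 genes whose counts averaged 100 or more. None differed 1.5-fold or more, against 7.84% of those genes. CPM values (counts scaled to library size with edgeR's TMM factors) were higher in replicate 2 for 5 members and higher in replicate 1 for the other 5. The median absolute log2 ratio was 0.10 for the members and 0.15 for the 8908 nuclear protein-coding genes with that count.

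TPM and CPM gave different spreads where the effective length assigned to a gene moved between the libraries. Prdx1 had a log2 ratio of replicate 2 over replicate 1 of -0.43 in TPM and -0.24 in CPM, while its effective length was 1461 bases in replicate 1 and 1628 bases in replicate 2. Prdx5 had -0.38 in TPM and -0.22 in CPM, with effective lengths of 615.9 and 670.6 bases. Prdx6 changed sign, at 0.14 in TPM and -0.06 in CPM, with effective lengths of 1597 and 1354 bases. TPM divides the counts by that length, so a change in it enters TPM and not CPM. Gpx4 and Sod2 also changed sign, within a narrower range, at -0.04 in TPM and 0.04 in CPM for Gpx4 and at -0.03 in TPM and 0.0047 in CPM for Sod2. The effective length of Sod2 was 3621 bases in replicate 1 and 3605 bases in replicate 2, a change that by itself would raise its TPM in replicate 2. TPM and CPM also differ in how each library is scaled, and the part of that scaling in these sign changes was not tested.

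**Figure D3:**
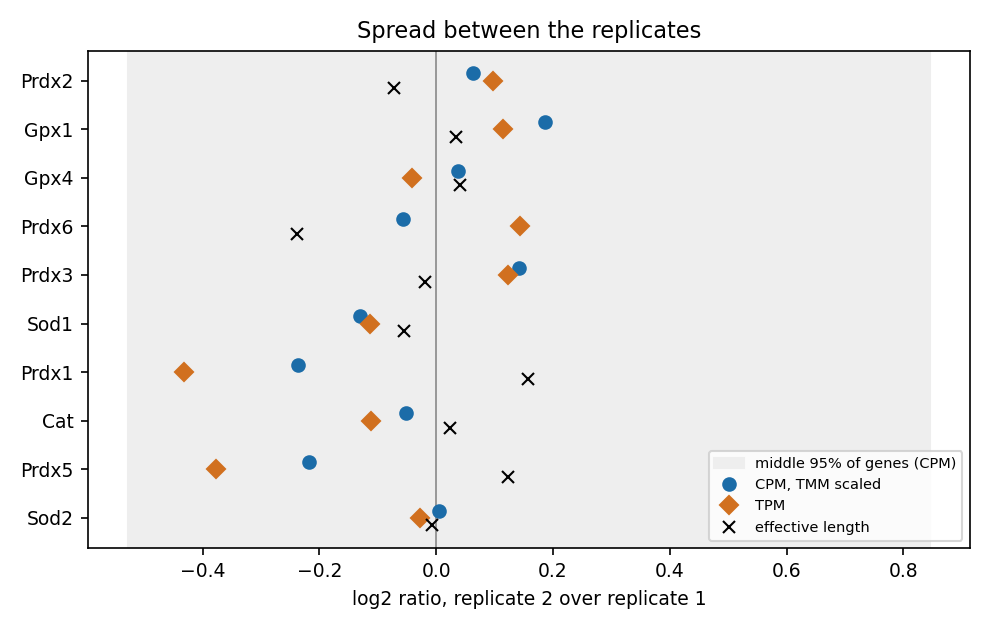
Log2 ratio of replicate 2 over replicate 1 for each enzyme, in CPM (circles), TPM (diamonds) and effective length (crosses). The grey band holds the middle 95% of CPM ratios of the 8908 nuclear protein-coding genes whose counts averaged 100 or more, between -0.53 and 0.85, and every point of the enzymes lies inside it.

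The transcript tables listed 43 transcripts of the 10 genes. Prdx3, Sod1 and Sod2 had 1 each, and 7 genes had several. The share of a transcript in its gene's TPM counts molecules, so a short transcript takes a larger share of TPM than of reads, and both shares are given. For Prdx2, Prdx6 and Gpx1, much of the TPM lay on transcripts whose annotated coding sequence does not hold the catalytic codon. Transcripts that code for it held 64.5% ± 4.38 of the TPM of Prdx2, 39.2% ± 11.7 of that of Prdx6 and 45.2% ± 5.82 of that of Gpx1 (SD, n = 2 each). By expected counts the shares were 85.7% ± 1.71, 56.1% ± 10.6 and 59.6% ± 5.85 (SD, n = 2 each). In Prdx1, Prdx5 and Gpx4 such transcripts held between 98.1% and 99.8% of TPM in each library. A share over all genes was computed for retained introns only, so the other shares cannot be read as particular to these enzymes.

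**Figure D4:**
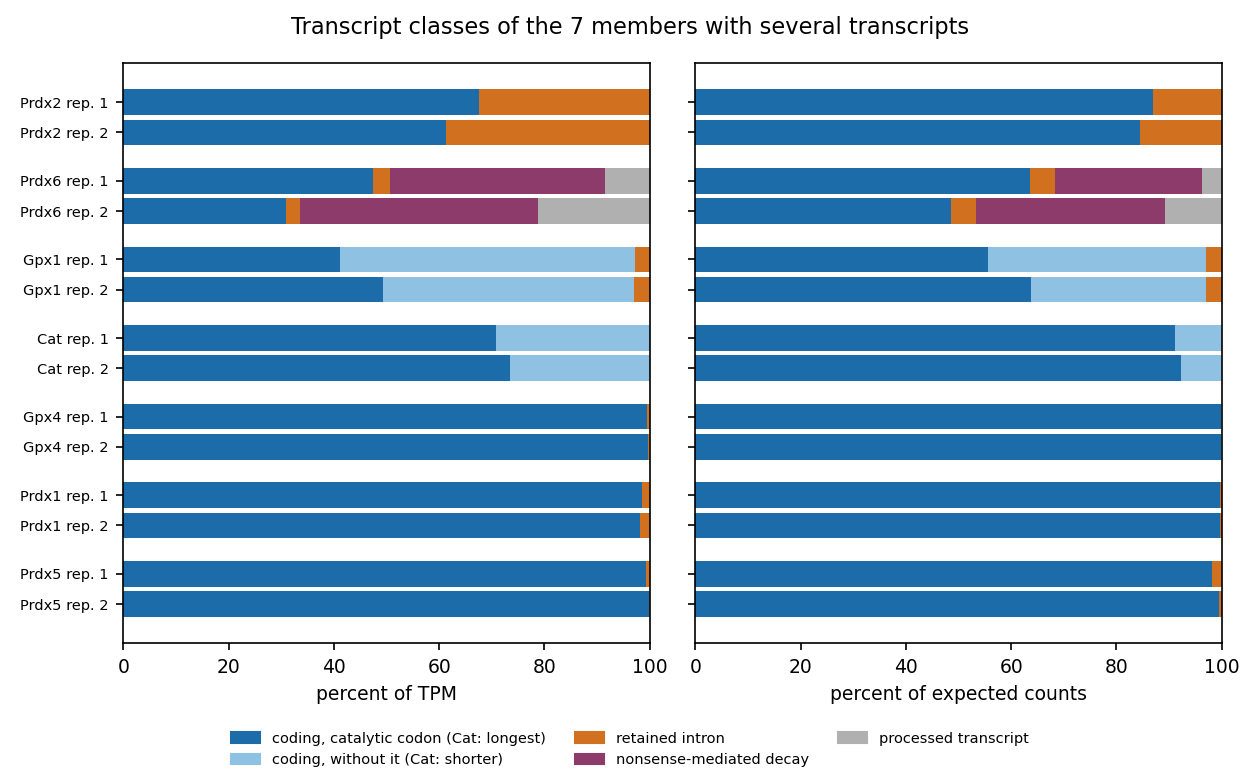
Share of each transcript class in the TPM (left) and in the expected counts (right) of the 7 genes with several transcripts, with 1 bar for each library. Dark blue marks coding transcripts with the catalytic codon, or the longest coding transcript for Cat, and it is shorter in TPM than in counts for Prdx2, Prdx6, Gpx1 and Cat.

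For Prdx2, the remainder lay on transcripts annotated as retaining an intron. Prdx2-205, of 549 bases (chr8:84971456-84974311), held 30.3% of the TPM of the gene in replicate 1 and 36.5% in replicate 2, but 11.4% and 13.7% of its expected counts. It spans neither the first exons nor the catalytic codon. The full-length coding transcript Prdx2-201 led with 44.9% and 47.4% of TPM and 63.0% and 69.0% of counts. Prdx2-208, which codes for the same 198 codons, had 12.4% of TPM in replicate 1 and 4.07% in replicate 2.

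All retained-intron transcripts of Prdx2 together held 35.5% ± 4.38 of TPM and 14.3% ± 1.71 of counts (SD, n = 2 each). Prdx2 was the single one of 6 members with such a transcript that reached 10% in both libraries, by TPM and by counts. The background was 48.4% of 3485 expressed genes by TPM and 31.2% by counts, with a median share of 11.7% of TPM, so the high share of Prdx2 was not rare, at percentile 85.6. The other 5 members lay at or below percentile 16.9 by TPM. By counts Prdx2 lay at percentile 74.4, and the other 5 between 3.21 for Gpx4 and 44.9 for Prdx6.

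For Prdx6, the transcript with the largest share of TPM is annotated as a target of nonsense-mediated decay, the pathway that degrades messages with an early stop. Prdx6-208 (chr1:161241015-161251186), whose 76 codons and exons leave out the catalytic codon, held 40.9% and 45.2% of TPM. The coding transcript Prdx6-202, of 224 codons, held 46.0% in replicate 1 and 30.1% in replicate 2. By expected counts Prdx6-202 led, with 62.9% and 48.1%, and Prdx6-208 held 28.0% and 35.9%. Prdx6-207, a processed transcript with no coding sequence, held 8.24% of TPM in replicate 1 and 21.1% in replicate 2. The coding share thus lay above the decay target in replicate 1 and below it in replicate 2 by TPM, and above it in both by counts.

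For Gpx1, the selenocysteine codon (chr9:108339451-108339453) separates the coding transcripts. Gpx1-201, of 201 codons, reads through it and held 41.1% and 49.4% of TPM. Gpx1-204 and Gpx1-202 carry the codon in their exons, but their annotated coding sequences of 145 and 144 codons do not include it. Gpx1-204 held 45.3% and 38.8% of TPM, and Gpx1-202 held 10.8% and 8.88%. Gpx1-204 had the larger share in replicate 1 and Gpx1-201 in replicate 2. Translation was not measured, so these shares describe annotated transcripts and not protein.

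Gpx4 is known to produce mitochondrial, cytosolic and nuclear forms of the enzyme from different start sites. Nearly all of its reads were on 2 transcripts. Gpx4-202 (chr10:80053488-80056439), with 197 codons, held 53.0% of TPM in replicate 1 and 68.6% in replicate 2. Gpx4-207 (chr10:80054465-80056394), with 157 codons, held 46.4% and 31.1%. Gpx4-201 (chr10:80054037-80056439), whose 253 codons begin in the alternative first exon of the nuclear form known from sperm, had 43 expected counts in replicate 1 and 2 in replicate 2, or 0.11% and 0.01% of TPM. The posterior SD of those counts was 7.82 and 2.51, so the level in replicate 2 was below its own error.

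RefSeq lists 4 start sites for Gpx4, each with a window of 250 bases before and 50 after it (GRCm38.p6, plus strand). The windows of the sites nearest to the annotated starts of Gpx4-202 and Gpx4-201 are shown, because Gpx4-202 had 19258 and 16416 expected counts and Gpx4-201 had 43 and 2. The first, chr10:80053315-80053614, has its listed site 77 bases downstream of the annotated start of Gpx4-202, which thus lies within the window, and it ends before the start codon. The second, chr10:80053761-80054060, has its site 26 bases upstream of the annotated start of Gpx4-201 and includes the start codon of that transcript. Capitals mark that start codon (ATG, in the second window) and matches on either strand to GATA motifs (AGATAA or TGATAA or AGATAG or TGATAG), to CCAAT, to TATAAA or to TGACNNNGC, the core of the antioxidant response element.
Gpx4 site nearest Gpx4-202: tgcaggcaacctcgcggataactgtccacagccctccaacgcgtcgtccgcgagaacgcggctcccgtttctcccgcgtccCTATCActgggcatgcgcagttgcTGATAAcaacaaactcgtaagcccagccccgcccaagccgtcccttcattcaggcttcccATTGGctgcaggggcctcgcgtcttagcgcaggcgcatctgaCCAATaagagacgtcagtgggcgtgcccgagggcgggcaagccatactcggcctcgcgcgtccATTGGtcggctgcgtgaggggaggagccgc
Gpx4 site nearest Gpx4-201: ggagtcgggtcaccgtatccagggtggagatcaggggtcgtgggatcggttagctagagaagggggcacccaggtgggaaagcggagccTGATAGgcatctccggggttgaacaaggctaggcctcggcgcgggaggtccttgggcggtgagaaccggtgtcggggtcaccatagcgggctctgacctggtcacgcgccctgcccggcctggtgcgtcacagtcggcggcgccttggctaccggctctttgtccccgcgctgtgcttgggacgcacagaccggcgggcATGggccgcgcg

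The first window held 2 matches to GATA motifs and 3 to CCAAT, and the second held 1 match to a GATA motif and none to CCAAT. A further listed site lies 171 bases downstream of the annotated start of Gpx4-202, past the start codon, and its window, chr10:80053409-80053708, overlaps the first and held 1 GATA match and 3 to CCAAT. Such matches are common. GATA motifs were found in 29.8% of 32851 RefSeq windows of this length, CCAAT in 37.4%, TATAAA in 13.6% and TGACNNNGC in 12.4%. Windows were listed for 9 of the 10 genes, 12 windows in all, and Prdx6 was not matched. Gpx4 was the single gene with a GATA match, in 3 windows, of which 2 overlap. TGACNNNGC was found for Prdx1 and Sod1, TATAAA for Prdx1, Prdx3 and Sod1, and CCAAT for Cat, Gpx4, Sod1 and Sod2. A match gives letters in a window and does not show that a factor binds there.

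The other 3 genes with several transcripts were led by coding forms. Cat-201, of 527 codons, held 72.1% ± 1.80 of the TPM of Cat and 91.6% ± 0.809 of its counts, and the shorter Cat-202, of 176 codons, held the rest (SD, n = 2). Prdx1-204 held 62.4% and 73.5% of the TPM of Prdx1. Prdx1-205, annotated with an incomplete 3′ end, held 30.7% and 24.1% of TPM but 8.58% and 5.80% of counts. Prdx5 was divided among Prdx5-203 with 45.2% and 43.1% of TPM, Prdx5-201 with 25.4% and 36.3%, and Prdx5-204 with 28.7% and 20.4%. Prdx5-201 led by counts, with 50.1% on average, so Prdx5 and Prdx6 were the 2 of 7 genes whose leading transcript depended on the quantity.

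Near-identical copies could in principle take reads from these genes. A search of the coding sequences against GENCODE M21 transcripts, at 90% identity or more over at least 200 bases, found 9 copies of 5 members. The copies with counts held little. For Prdx1 the processed pseudogenes were Gm21399, with 31.6 and 11.4 expected counts, Gm7204, with 7.08 and 3.74, and Gm15974, with 1 and 0. Tdpx-ps1, a copy of Prdx2, had 41.0 and 26.4 expected counts, and Gm8566, a copy of Sod1, had 43.8 and 10.2. The largest sum over the copies of a member was 0.511% of that member's counts, for Sod1 in replicate 1. The protein-coding Prdx6b, 92.9% identical to Prdx6 over 672 bases, had no counts in either library. Gpx4-ps2, 99.6% identical to Gpx4 over 552 bases, was not analysed here. Nor was another Gpx4 copy, a processed pseudogene on chromosome 17, 95.1% identical over 535 bases. Reads that Gpx4 shares with these copies could not be separated.

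Antisense neighbours overlapped 3 members. Rnaseh2a overlapped Prdx2 by 181 bases and had 4178 and 3899 expected counts, and Junb overlapped it by 351 bases with 1430 and 965. Trmt112 overlapped Prdx5 by 409 bases, with 2971 and 2006 expected counts beside 4863 and 2827 for Prdx5. Scaf4 overlapped Sod1 by 650 bases, with 1560 and 921. Whether the counting used strand is not given in the sources used here, so reads of each overlap may have been assigned to either gene.

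Among 79 measured genes that supply, assist or oppose these enzymes, in 8 lists, 58 reached 1 TPM in both libraries, against 36.3% of nuclear protein-coding genes. These lists, too, were chosen with earlier results of these data known. The other members of the same families were nearly silent, with 1 of 8 at that level. Prdx4, the peroxiredoxin of the endoplasmic reticulum, had 5.55 and 6.56 TPM. Gpx6 had 3 expected counts in replicate 1 and 0 in replicate 2, and Gpx7 had 0 and 1. Gpx2 and Sod3 had no counts, nor did Gpx3, Gpx5 and Gpx8, which were named after their values were seen. A count of 0 in replicate 1 allows 3 counts, or up to 0.0169 TPM for Gpx2 and 0.00434 TPM for Sod3.

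The thioredoxin system, which returns electrons to peroxiredoxins, had 8 of 10 genes at 1 TPM in both libraries. Txnip, an inhibitor of thioredoxin, led with 83.68 and 75.21 TPM. Mitochondrial thioredoxin reductase Txnrd2 had 25.78 and 23.12 TPM, and thioredoxin Txn1 had 17.56 and 18.27 TPM. Lowest were Txnrd3, with 0.18 and 0.23 TPM, and Sesn3, with 0 and 3 expected counts.

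The glutathione system had 11 of 12 genes at that level. Glrx5, a mitochondrial glutaredoxin of iron-sulfur cluster assembly, led with 172.48 and 168.85 TPM. Slc3a2, the heavy chain of several amino acid transporters, had 23.12 and 25.14 TPM, and Gclm, the modifier subunit of glutathione synthesis, had 18.76 and 20.85 TPM. Ggct had 2.49 and 2.64 TPM. Slc7a11, the cystine transporter that pairs with Slc3a2, had 0.01 and 0.03 TPM, from 7 and 30 expected counts.

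NADPH feeds both systems, and 11 of 12 genes for its supply reached 1 TPM in both libraries. Transketolase (Tkt) had 110.46 and 114.51 TPM, cytosolic isocitrate dehydrogenase (Idh1) 105.02 and 89.00 TPM, and transaldolase (Taldo1) 89.86 and 100.55 TPM. The lowest were mitochondrial Idh2, with 1.17 and 1.46 TPM, and the malic enzyme Me1, with 0.69 and 0.91 TPM. Of 8 genes of selenoprotein synthesis, on which Gpx1 and Gpx4 depend, 6 reached that level. Sephs2, which makes the active selenium donor, led with 15.64 and 18.01 TPM. Pstk had 5.91 and 6.10 TPM, Secisbp2 4.44 and 4.17 TPM and the elongation factor Eefsec 0.99 and 1.16 TPM. Lrp8, a selenoprotein P receptor, had 0.24 and 0.66 TPM and was the single gene of the 79 that differed 2-fold or more between libraries at a mean count of at least 100.

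Transcription factors and targets of the NRF2 axis, which acts through antioxidant response elements, all reached 1 TPM, 8 of 8. The haem-regulated repressor Bach1 led with 45.40 and 36.00 TPM. Its partner Mafk had 26.97 and 24.74 TPM and Nfe2l2, which codes for NRF2, had 22.29 and 20.71 TPM. The target genes Hmox1 and Nqo1 were lowest, with 3.70 and 2.83 TPM for Hmox1 and 1.07 and 1.75 TPM for Nqo1.

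Of enzymes that produce oxidants, 4 of 11 measured genes reached 1 TPM in both libraries, near the background of 36.3%, and the list median was 0.02 TPM. Ero1l, an oxidase of the endoplasmic reticulum, led with 20.79 and 17.69 TPM. Ncf4, a subunit of the phagocyte oxidase, had 1.56 and 2.04 TPM. Nox4 had no counts, and Duox1 had 0 and 1 expected count. Of metal chaperones and import factors, 9 of 10 reached 1 TPM. Cox17, a copper chaperone of the mitochondrion, had 187.38 and 171.95 TPM, and Slc25a3, a carrier of phosphate and copper, had 38.92 and 37.43 TPM. The copper importer Slc31a1 had 17.23 and 13.96 TPM. Pex13, of peroxisomal import, had 2.75 and 1.92 TPM, and Slc39a14, a transporter of manganese and other metals, had 0 and 3 expected counts.

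**Figure D5:**
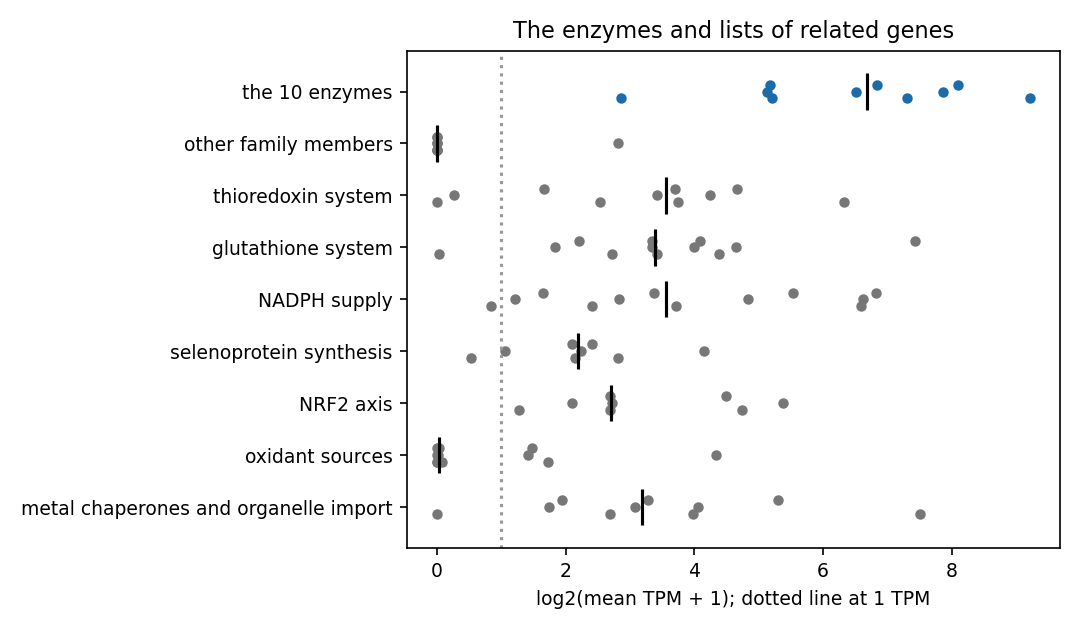
Mean TPM of both libraries as log2(TPM + 1) for the 10 enzymes and for the genes of 8 related lists, with a vertical bar at each median and a dotted line at 1 TPM. The enzymes' median lies to the right of every list median, and the lists of other family members and oxidant sources have medians near 0.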

How the data were processed

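Expected counts, TPM and FPKM per gene and per transcript were deposited by the authors for each library, per the file headers. The deposited percent values give a transcript's share of its gene's TPM. The posterior mean TPM, credible bounds and posterior SD of the count are signal values, per the file headers. The build was mm10, per the labels, with GENCODE M4, per the text deposited with the tables. The aligner and counting program are not given in the sources used here. Names, types and coordinates came from GENCODE M21 (GRCm38). Of 43 transcripts, 19 had the same version and 41 the same length there. Sod1-201 and Sod2-201 had another length. Rows with no Ensembl gene ID (26345) held 18 and 5 counts and were left out.

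Levels were compared in TPM, per transcript length. A gene was called present at 1 TPM in both libraries. Ratios between libraries used expected counts, a prior count of 0.5 and TMM factors of 0.989 and 1.011, with a mean count of at least 100. The factors came from edgeR 4.0.16 (R 4.3.3) on rounded expected counts. With 1 group, edgeR's quasi-likelihood test has no contrast, and no p is printed. The 2-fold rule was tested on simulated data. Copies were searched with BLAST 2.17.0. Tables were made with Python 3.11 and pandas 2.3.3. Intervals and limits cover counting error only.

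The members and lists were chosen with earlier results of these data known. Text names all members, the top 3 and up to 2 lowest of each list by mean TPM, transcripts of 10% of a member's TPM or more and the leading one, and copies or overlapping genes with a count, at most 3 per member. Prdx2-208, Gpx1-202, Gpx4-201, Prdx6b, Gpx4-ps2, Gpx3, Gpx5 and Gpx8 were added after their values were seen. Ero1a and Ero1l are names of 1 gene. A gene that the rule names is not reported here.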

Additional observations from a re-analysis of the deposited data

How the results depend on the processing

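Of 151 alternative values, 5 for main results and 9 for other results moved beyond the limit set for that result. Turns of direction were not scored. Among those that moved, the log2 ratio of Prdx6 between libraries changed sign, from -0.06 in CPM to 0.18 in centred TPM. The posterior mean TPM of each of the 10 members lay within 1 SD of its mean TPM. Scaled FPKM equals TPM by construction, and with 2 libraries either one alone always lies within 1 SD of the mean, so those alternatives show nothing on stability. Dividing reads by length mattered most. By expected counts, the 10 enzymes held 0.617% of the nuclear protein-coding total in place of 1.10% of TPM, and transcripts with the catalytic codon held 85.7% of Prdx2, 56.1% of Prdx6 and 59.6% of Gpx1. Without a filter on low values, an alternative chosen after seeing the data, the members' median percentile was 99.0 in place of 97.3. With 1 library left out in turn, the median TPM lay between 101.4 and 102.7, the related genes at 1 TPM between 58 and 59, and the catalytic-codon share between 61.4% and 67.6% for Prdx2, 30.9% and 47.5% for Prdx6 and 41.1% and 49.3% for Gpx1. Separated pairs numbered 35 to 44 over 6 alternatives, and could not be counted with 1 library. At 10 TPM, 9 members passed. The related genes depended on the threshold, with 39 at 5 TPM and 66 with any count above 0 in both libraries. No member reached 2-fold with DESeq2 1.42.0 size factors, plain CPM or centred TPM. No paired analysis was possible because both libraries belong to 1 group. With 2 libraries, depth was not what limited the members, whose lowest count was 2827, but the number of cultures.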
